A study of Mus musculus with 8 samples.

Results

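The replication-dependent histone genes are 66 of the 55487 genes in a table of TPM values, a transcript abundance scaled for gene length and library size, from J774A.1 cells, a mouse macrophage line. They were picked by name alone, as the genes called Hist1h to Hist4h, H2ac, H2bc, H3c, H4c or H1f1 to H1f6 with a number or letter, leaving out names that end in -ps. The set consisted of 6 H1, 19 H2A, 17 H2B, 12 H3 and 12 H4 genes. All 8 libraries came from cells given lipopolysaccharide (LPS) at 1 μg/mL for 24 h, and 4 of them also received ursodeoxycholic acid (UDCA), a bile acid, at 1 mM. The comparison asks which transcripts differ when the bile acid is added to the stimulus, and neither unstimulated cells nor UDCA alone were analysed here. The line is a single established tumor line, and the labels do not say whether the 4 libraries of a group came from separate cultures, so the spread between them may be technical.

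Histones are the proteins that DNA wraps around. H2A, H2B, H3 and H4 form the nucleosome core, and H1 binds the DNA that enters and leaves it. Replication-dependent histone genes are transcribed mainly in S phase, when new DNA needs packing. Their mRNAs usually end in a conserved stem-loop instead of a poly(A) tail, and the stem-loop binding protein Slbp carries them through processing and translation. After S phase they are degraded. Some histone genes can also use a polyadenylation signal further downstream and give a tailed mRNA, as has been described for cells that stop dividing. The library kit named in the labels enriches RNA with a poly(A) tail and does not mark strand, so tailed and tailless histone mRNAs are not captured alike.

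The 3′ ends carried by the annotation are shown first, because such a kit captures RNA by its tail. In the GENCODE M21 transcripts (GRCm38), 43 of the 66 histone genes (65.2%) held the letters GGNNNTNNTNANNNCC with the first and last 6 bases able to pair, searched on the transcript strand. The same letters with the same pairing occurred in 163 of 55384 other genes (0.294%). The stem-loop began 22 to 59 bases past the stop codon, and it came in 8 forms. A single form was shared by 24 genes of types H1, H2A, H2B and H3, whereas a form with a GC-rich stem was found in 6 H4 genes. Examples from the more abundant members and from the less usual forms are given 5′ to 3′ as DNA letters, with the stem-loop in capitals and the capitals' position in GRCm38.
H1f2, chr13:23739512-23739527, plus strand: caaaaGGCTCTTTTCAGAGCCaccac
H2ac18, chr3:96246032-96246047, plus strand: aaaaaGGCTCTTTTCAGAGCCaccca
H2ac19, chr3:96239784-96239799, minus strand: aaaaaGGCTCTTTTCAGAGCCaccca
Hist1h2ap, chr13:21833029-21833044, minus strand: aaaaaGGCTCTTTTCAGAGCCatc
H2bc12, chr13:22036300-22036315, plus strand: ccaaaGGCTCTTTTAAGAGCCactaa
H3c3, chr13:23745047-23745062, minus strand: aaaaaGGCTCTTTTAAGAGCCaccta
H3c8, chr13:23535889-23535904, plus strand: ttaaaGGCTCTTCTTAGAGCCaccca
H4c8, chr13:23531458-23531473, plus strand: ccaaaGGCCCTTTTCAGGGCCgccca
Hist1h4n, chr13:21831798-21831813, minus strand: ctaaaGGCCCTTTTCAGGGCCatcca
Hist1h4m, chr13:21812129-21812144, plus strand: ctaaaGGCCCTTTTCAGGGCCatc
H4c9, chr13:22040966-22040981, minus strand: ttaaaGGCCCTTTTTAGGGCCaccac
H4c1, chr13:23760800-23760815, minus strand: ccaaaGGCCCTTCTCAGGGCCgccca
H4c11, chr13:21735437-21735452, plus strand: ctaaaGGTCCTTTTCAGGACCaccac

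Of the 23 members without the stem-loop, 19 had an annotated transcript that ended within 50 bases of the stop codon or had no coding sequence, so the window where it would lie was not in the annotation. H3c10 and H4c12, which appear below among the genes with the highest values under UDCA, were of this kind. H2bc4 differed from them: its only annotated transcript ran 742 bases past the stop codon over 2 exons and contained neither a stem-loop nor a polyadenylation hexamer in its last 40 bases. H2bc21 had no stem-loop but ended with a hexamer. An AATAAA or ATTAAA hexamer within the last 40 bases was found in at least 1 transcript of 14 members, and 11 of these also had the stem-loop upstream. Of these annotated ends, 4 are printed with the hexamer in capitals. Those of H1f2, H4c8 and H4c9 lie beyond a stem-loop, and that of H2bc21 stands alone.
H1f2, chr13:23740342-23740347, plus strand: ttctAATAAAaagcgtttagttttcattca
H2bc21, chr3:96223717-96223722, plus strand: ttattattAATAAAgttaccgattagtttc
H4c8, chr13:23531488-23531493, plus strand: ttATTAAAagagcgaacatgtgttttacgt
H4c9, chr13:22040651-22040656, minus strand: tctgtttacATTAAAagtattctatgctaa

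The summed level of the 66 genes was higher in the UDCA group. The sums were 133, 149, 129 and 131 TPM in the LPS libraries and 312, 275, 332 and 316 TPM in the LPS + UDCA libraries. These are 135 ± 9.48 and 309 ± 24.4 TPM (SD, n = 4), a ratio of 2.28, and the groups did not overlap. Over all 66 genes, the group mean was higher with UDCA in 53 and lower in 10 (57.6% of the 23729 genes above 0 TPM were higher), and 3 genes (H2ac1, H2ac14 and Hist1h2ao) were listed at 0 TPM in every library. In 29 genes every UDCA library was above every LPS library, and in 0 genes was every UDCA library below. Among the 23729 genes above 0 TPM, 22.6% had non-overlapping groups in the upward direction and 16.7% in the downward direction. The set was proposed with this comparison known, so its members are described without p-values of their own, and counts past the limits of the model across genes are given only beside the share over all genes.

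Most histone genes were low. An average of 1 TPM over the 8 libraries, the limit used for the model across genes, was reached by 32 of the 66, and an average of 5 TPM by 11. Among the 32 genes, 13 had a mean under 1 TPM in the LPS group and passed only through their level in the UDCA group. With limma on log2(TPM + 1), 20 of the 32 passed both limits upward, a 2-fold change and a false discovery rate (FDR) under 0.05, and 0 passed downward. Over all 11796 genes in the model the shares were 8.71% upward and 8.44% downward. Nothing is read from this contrast, because the set was proposed with it known and because 11 of the 20 calls were among the 13 genes that reached the average only through the UDCA group. Of the 19 genes with an LPS mean of 1 TPM or more, 9 passed. The FDR limit alone was passed upward by 24 of the 32, against 40.2% of all genes upward and 32.3% downward. The median difference in log2(TPM + 1) was 1.21 for the 32 genes, 0.61 for all 66, and 0.082 for all genes in the model. With a pseudocount of 0.1 in place of 1 the median of the 32 was 1.97, and with a limit of 5 TPM it was 0.64 over 11 genes, of which 5 passed. H1f4 (1.03 TPM) and H2ac8 (1.13 TPM) lay just inside the limit of 1 TPM, and H2bc6 (0.944 TPM) and Hist1h2an (0.926 TPM) lay just outside.

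**Figure D1:**
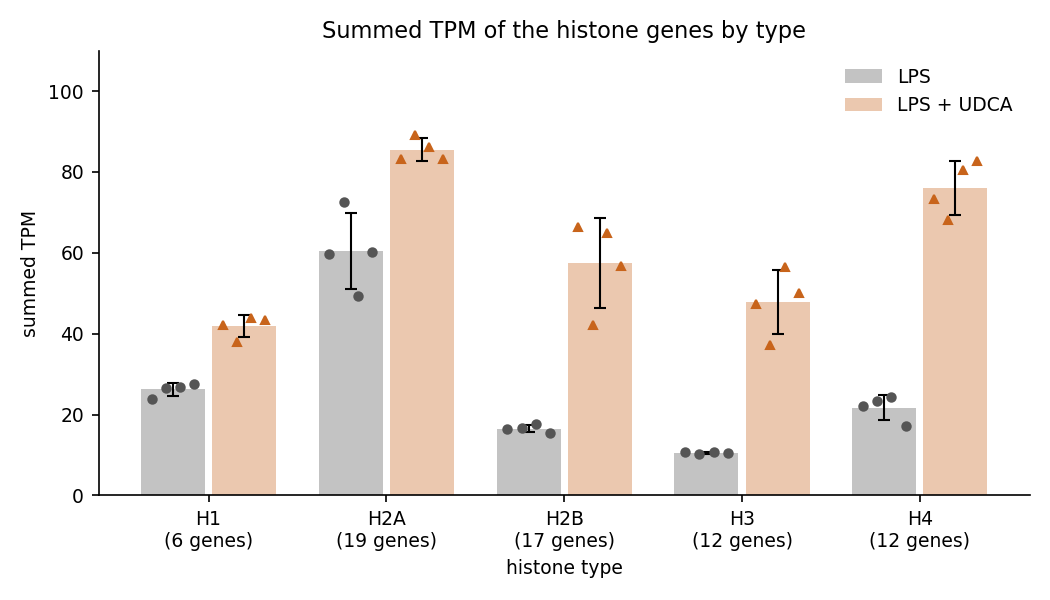
Summed TPM of the histone genes of each type (y axis) in the LPS libraries (grey, circles) and the LPS + UDCA libraries (orange, triangles). Bars are means of 4 libraries, error bars are SD and points are single libraries. In every type all 4 UDCA libraries lie above all 4 LPS libraries, with the smallest ratio of means in H2A (60.5 and 85.5 TPM) and the largest in H3 (10.6 and 47.8 TPM).

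The plot of summed TPM by type shows unequal ratios. The ratio of group means was 4.52 for H3, 3.51 for H4, 3.48 for H2B, 1.60 for H1 and 1.41 for H2A. On the summed TPM scale, H3 went from 10.6 ± 0.242 to 47.8 ± 7.97, H4 from 21.7 ± 3.13 to 76.1 ± 6.68, and H2B from 16.5 ± 0.846 to 57.6 ± 11.2 (SD, n = 4). H2A was the most abundant type in LPS alone at 60.5 ± 9.49 TPM and reached 85.5 ± 2.86 TPM with UDCA. Most of its level came from 3 genes, H2ac18, H2ac19 and Hist1h2al, which together had 53.5 ± 8.99 TPM in LPS and 62.8 ± 6.24 TPM with UDCA and overlapped between the groups. The other H2A genes on chromosome 13 summed to 6.21 ± 1.65 and 22.5 ± 4.34 TPM, a ratio of 3.62. The unequal ratios between types were not tested, and the 5 sums come from the same 8 libraries. In such bulk samples, a change in the share of cells that hold these mRNAs and a change in mRNA per cell cannot be told apart.

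**Figure D2:**
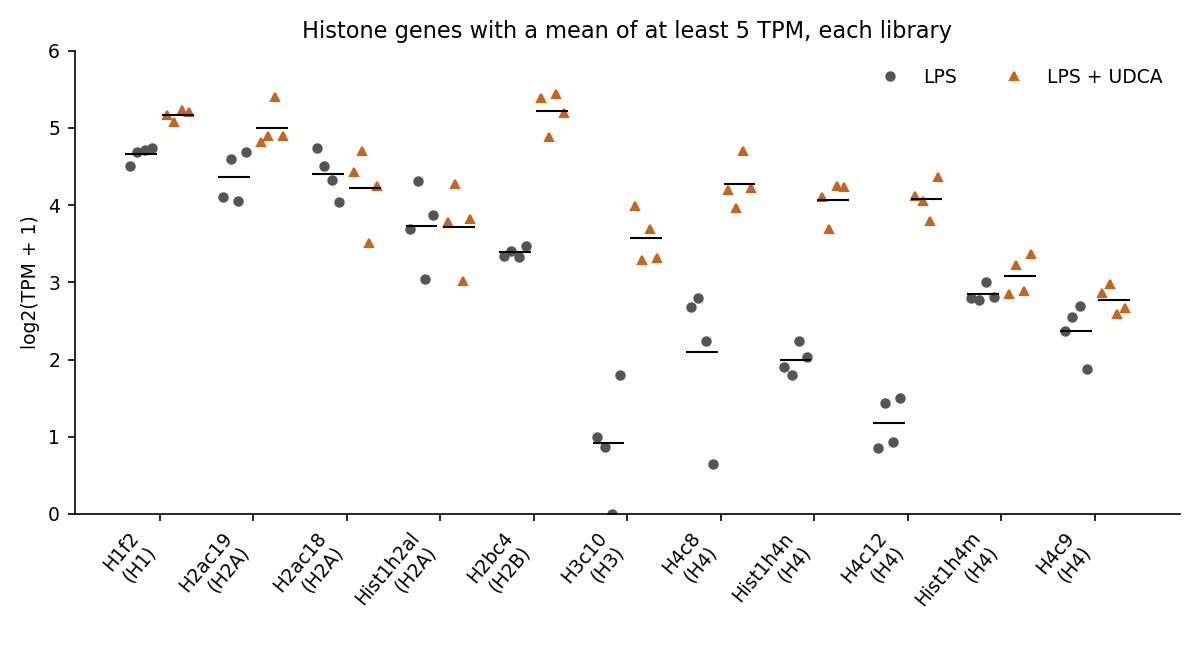
Level of the 11 histone genes averaging 5 TPM or more, as log2(TPM + 1) on the y axis, in each LPS library (grey circles) and each LPS + UDCA library (orange triangles). Horizontal bars are means of 4 libraries. H2bc4, H3c10, H4c8, Hist1h4n and H4c12 separate widely, H1f2 and H2ac19 separate narrowly, and H2ac18, Hist1h2al, Hist1h4m and H4c9 overlap.

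Among the linker histones, H1f2 (also known as H1.2 or Hist1h1c) was by far the most abundant. Its level was 21.7, 24.8, 25.2 and 25.7 TPM in LPS and 34.9, 32.6, 36.5 and 36.1 TPM with UDCA. The groups did not overlap, and the difference in log2(TPM + 1) was 0.51 ± 0.064 (SE), which is under the 2-fold limit. The other 5 linker genes were at most 2.78 TPM in any library. H1f5 differed by 1.17, H1f1 by 0.98, H1f4 by 0.64 and H1f3 by 0.68 on the log2(TPM + 1) scale, each without overlap, and H1f5 alone of the type passed both limits. H1f6, the testis linker histone, was listed at 0 TPM in all LPS libraries and at 0 to 0.1 TPM with UDCA. Without H1f2 the summed H1 level had a log2 ratio of 1.89, against 0.68 with it.

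The H2A type contained the gene pair with the highest values. H2ac18 and H2ac19 lie in opposite orientation in the chromosome 3 cluster, and all 31-base words of the shorter transcript were found in the other, so reads of that length cannot be assigned to 1 of them. H2ac18 had 25.8, 21.7, 19.1 and 15.5 TPM in LPS and 20.6, 25.0, 10.4 and 17.9 TPM with UDCA. H2ac19 had 16.2, 23.3, 15.6 and 24.9 TPM in LPS and 27.1, 28.8, 41.3 and 28.8 TPM with UDCA. The groups overlapped in H2ac18 and did not overlap in H2ac19. The share of H2ac18 in the pair ranged from 38.4% to 61.5% in LPS and from 20.1% to 46.5% with UDCA. The sum of the pair was steadier, at 42.0, 45.0, 34.7 and 40.4 TPM in LPS and 47.8, 53.7, 51.7 and 46.7 TPM with UDCA. It did not overlap between the groups, with a ratio of 1.23. Without LPS + UDCA replicate 3, in which H2ac19 was highest and H2ac18 lowest, the difference of H2ac18 moved from −0.19 to 0.052 in log2(TPM + 1).

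**Figure D3:**
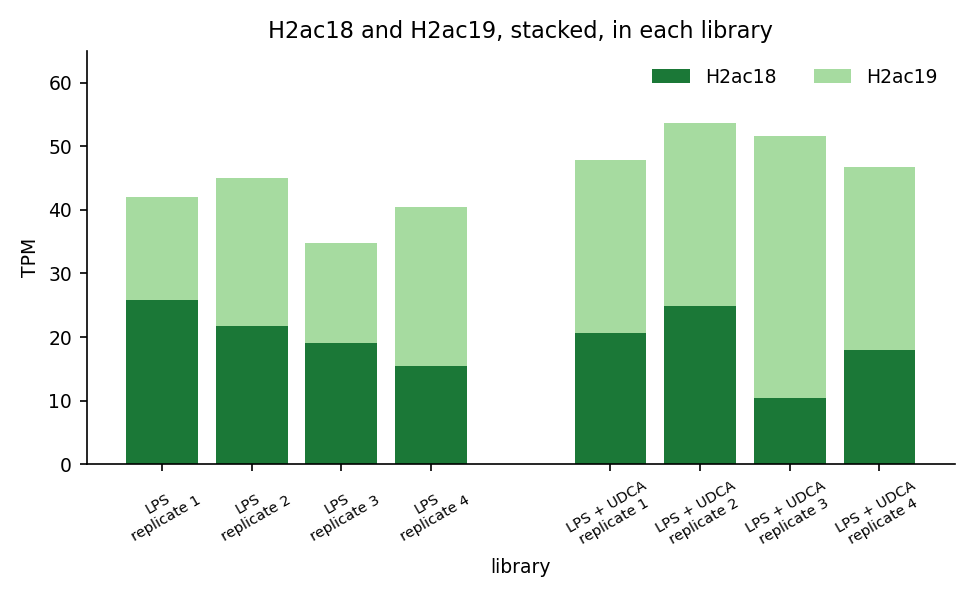
TPM (y axis) of H2ac18 (dark) and H2ac19 (light), stacked, in each of the 8 libraries (x axis), 1 library per bar. The split between the 2 genes varies from bar to bar, with H2ac18 at 10.4 TPM in LPS + UDCA replicate 3, while the bar heights run from 34.7 to 45.0 TPM in LPS and from 46.7 to 53.7 TPM with UDCA.

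The remaining H2A genes were lower. Hist1h2al, annotated as a processed pseudogene at chr13:51202727-51203065 away from the histone clusters, had 11.97, 18.96, 7.26 and 13.7 TPM in LPS and 12.7, 18.4, 7.07 and 13.1 TPM with UDCA. These values did not separate the groups, and in this gene libraries with the same replicate number had nearly the same value. The difference of −0.013 became 0.18, 0.033 and 0.22 without LPS replicate 2, LPS replicate 4 and LPS + UDCA replicate 3. Of its 31-base words, 79.9% were shared with genes outside the set, and as many were found in Gm20634, a gene model of the chromosome 3 cluster. The members H2ac18 and H2ac19 each held 79.9% of its words as well. The value of Hist1h2al therefore depends on how shared reads were assigned. Hist1h2ap was above its LPS range in every UDCA library, with 1.34 to 2.79 TPM in LPS and 5.02 to 7.40 TPM with UDCA. H2ac12 had 1.25, 0.78, 0 and 0 TPM in LPS and 8.35, 2.39, 8.86 and 5.93 TPM with UDCA. H2ac8 was at most 0.51 TPM in LPS and 1.11 to 3.12 TPM with UDCA, and its difference of 1.03 lay close to the 2-fold limit. H2ac7 overlapped between the groups. Of the other 12 H2A genes, all under the 1 TPM limit, H2ac6 was at 0.05 to 0.11 TPM in LPS and at 1.09 to 2.15 TPM with UDCA, a ratio of means of 19.5.

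H2bc4, an H2B gene whose annotated mRNA is spliced, had the highest level with UDCA of any single core histone gene except H2ac19 in 1 library. It was at 9.18, 9.58, 9.06 and 10.1 TPM in LPS and at 40.7, 28.4, 42.6 and 35.6 TPM with UDCA. The LPS libraries lay within about 1 TPM of each other, all UDCA libraries lay far above, and the difference in log2(TPM + 1) was 1.84 ± 0.11 (SE). It supplied most of the summed H2B level, and without it the log2 ratio of that sum was 1.56 against 1.80. H2bc12 had 2.95, 1.24, 1.54 and 0.78 TPM in LPS and 10.04, 5.32, 5.64 and 4.10 TPM with UDCA. H2bc8 ranged from 0.61 to 1.26 TPM in LPS and from 1.56 to 5.44 TPM with UDCA. H2bc21 on chromosome 3 stayed at 1.20 to 1.77 TPM in LPS and 1.46 to 1.73 TPM with UDCA, and its difference of 0.070 became −0.053 under quantile normalization. The other 13 H2B genes were under the 1 TPM limit, and 3 of them (H2bc6, Hist1h2br and H2bc9) did not overlap between the groups, which is 23.1% and close to the 22.6% of all genes above 0 TPM.

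The 9 H3 genes of chromosome 13 had the largest ratio of summed TPM of any type on either chromosome, at 6.22. H3c10 had 0.99, 0.83, 0 and 2.49 TPM in LPS and 14.8, 8.77, 11.96 and 8.95 TPM with UDCA. This is a difference of 2.65 ± 0.34 in log2(TPM + 1). Of the 31-base words of H3c10, 94.2% also occurred in other genes, and it shared 85.3% with H3c11. The sum of H3c10 and H3c11 was 2.235 ± 0.884 TPM in LPS and 17.8 ± 5.15 TPM with UDCA (SD, n = 4). H3c3 ranged from 0.22 to 0.81 TPM in LPS and from 4.49 to 7.54 TPM with UDCA, a ratio of means of 12.1. H3c1, at 0.58 to 1.24 TPM in LPS, and H3c8, at 0.63 to 1.97 TPM in LPS, reached 4.23 to 6.30 and 4.51 to 7.73 TPM with UDCA. H3c4 and H3c6 differed by 1.23 and 1.16. H3c11 passed both limits with a difference of 1.84 although its lowest UDCA library (2.33 TPM) was below its highest LPS library (2.99 TPM). On chromosome 3, H3c15 overlapped between the groups (2.84 to 3.84 TPM in LPS, 3.43 to 4.05 TPM with UDCA), whereas H3c13 was at 0 to 1.20 TPM in LPS and 2.07 to 4.2 TPM with UDCA. Every 31-base word of H3c13 was also present in Gm20628, an overlapping gene model on the other strand, so its reads could not be assigned without strand.

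H4 held the largest difference among the 66 genes on the log2(TPM + 1) scale. H4c12 had 0.80, 1.71, 0.91 and 1.82 TPM in LPS and 16.4, 15.6, 12.9 and 19.6 TPM with UDCA. This is a ratio of means of 12.3 and a difference of 2.90 ± 0.18 (SE) in log2(TPM + 1). Of the 31-base words of H4c12, 86.2% also occurred in other genes, so its value depends on how shared reads were assigned. H4c8 had 5.40, 5.95, 3.73 and 0.57 TPM in LPS and 17.4, 14.6, 25.0 and 17.7 TPM with UDCA. Its LPS libraries were uneven, and all 4 stayed below the UDCA libraries. Hist1h4n had 2.75, 2.49, 3.74 and 3.09 TPM in LPS and 16.2, 11.9, 18.1 and 17.9 TPM with UDCA. Hist1h4m, which shares 91.7% of the 31-base words of the shorter transcript with Hist1h4n, had 5.98, 5.82, 7.04 and 6.0 TPM in LPS and 6.23, 8.32, 6.43 and 9.32 TPM with UDCA and overlapped. The sum of these neighbors was 9.23 ± 1.08 and 23.6 ± 2.96 TPM (SD, n = 4). H4c9, with 4.17, 4.85, 5.45 and 2.68 TPM in LPS and 6.24, 6.85, 5.02 and 5.33 TPM with UDCA, also overlapped. H4c1 and H4c11 passed both limits at 1.66 and 1.42, and H4c6, whose groups overlapped, did not.

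The 34 genes under the 1 TPM limit reached at most 3.75 TPM in any library. Their mean was higher with UDCA in 23, lower in 8 and 0 in 3, and 6 of them did not overlap between the groups, all in the upward direction. These are 19.4% of the 31 above 0 TPM, under the 22.6% of all genes above 0 TPM. H2bc6, Hist1h2an and Hist1h2br had the highest means among them. An exact 0 can be a failed assignment, and since TPM keeps no read depth, no limit of detection can be given.

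In 44 members at least 50% of the 31-base words also occurred in other genes. Members that share sequence were also summed, to lessen the effect of how reads were split within a group. The split can still enter the sum, because TPM is scaled for gene length and lengths differ within a group. In the H2B group, for example, the transcript used for H2bc13 has 381 bases and that of H2bc6 2506 bases. Reads shared with genes outside a group also still enter its value. Joining genes with at least 50% of their 31-base words in common gave 21 groups, of which 13 reached 1 TPM. This grouping was chosen after seeing the data. Of the 13 groups, 6 passed both limits upward and 0 downward. In the same fit 8.61% of 11777 entries passed upward and 8.45% downward. The 9 H3 genes of chromosome 13 together differed by 2.45 ± 0.14 (SE), a group of 7 H4 genes by 2.13 ± 0.20, the 14 H2B genes by 1.85 ± 0.13, the 13 H2A genes by 1.71 ± 0.18 and the Hist1h4m and Hist1h4n group by 1.26 ± 0.10. H1f5 was the sixth. The group of H2ac18, H2ac19, H2ac20 and Hist1h2al differed by 0.22 ± 0.12, and the group of H3c13, H3c14 and H3c15 by 0.65 ± 0.12.

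**Figure D4:**
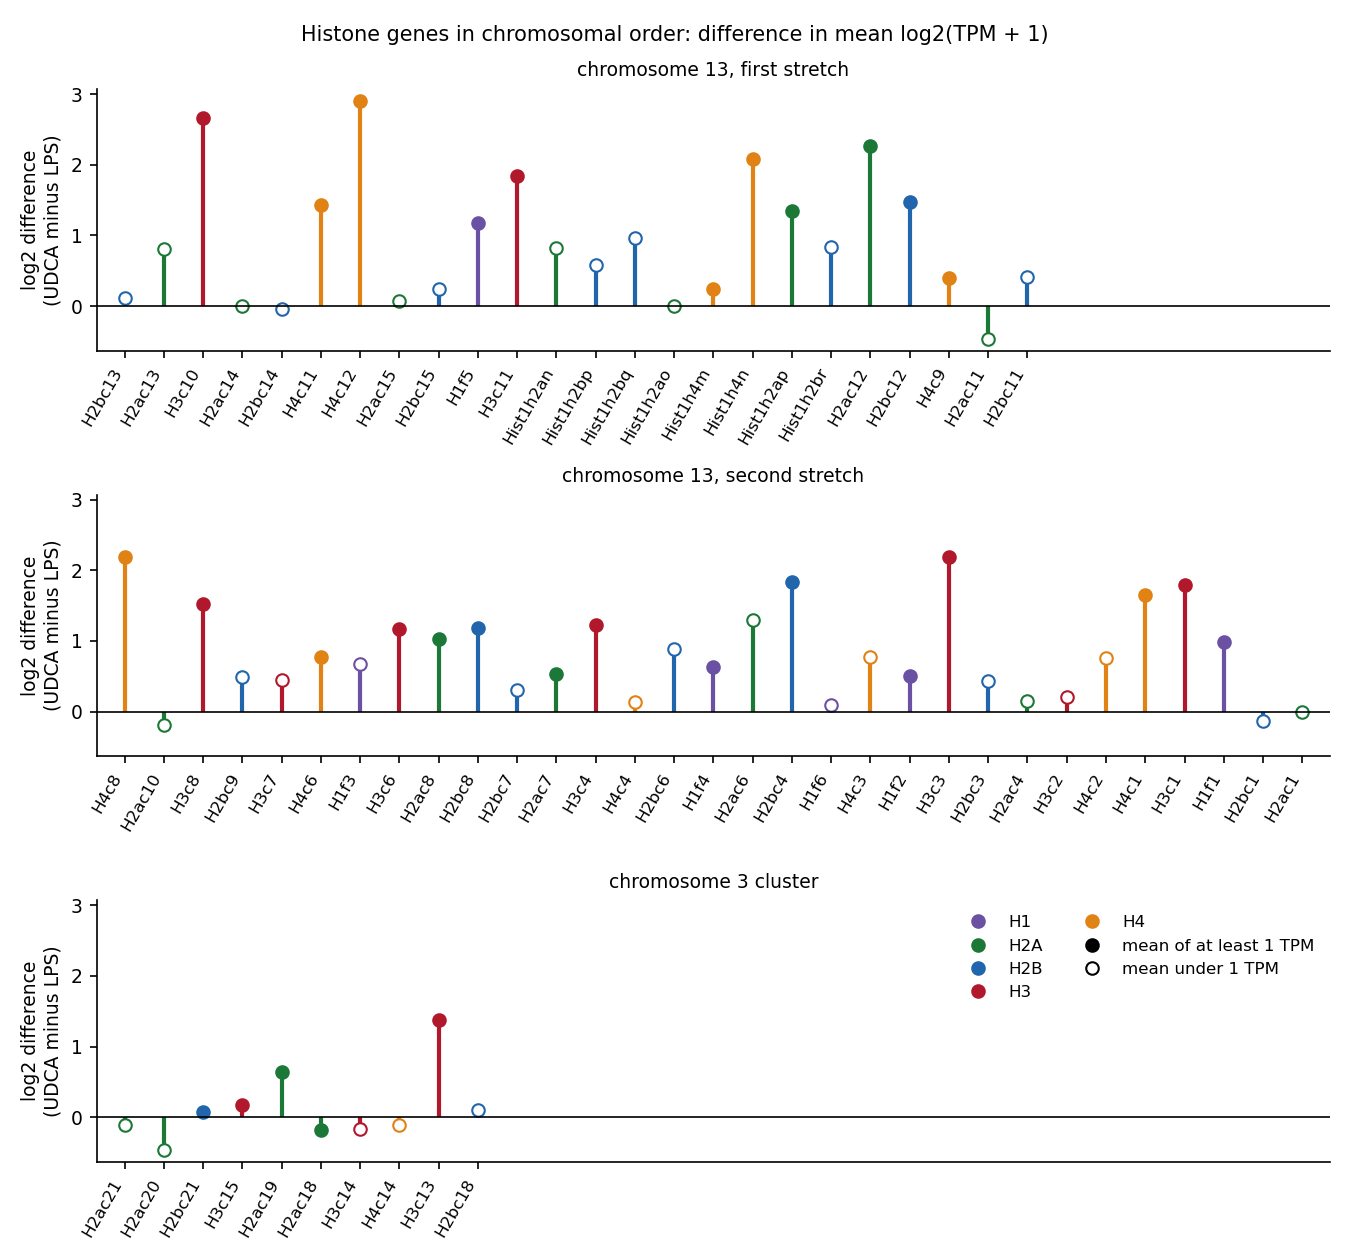
Difference in mean log2(TPM + 1), LPS + UDCA minus LPS (y axis), for 65 histone genes in chromosomal order (x axis, Hist1h2al not drawn), colored by histone type. Filled points average 1 TPM or more and open points less. The 2 stretches of chromosome 13 hold points up to 2.90 and 2.19, while 5 of the 10 chromosome 3 genes lie below 0 and H3c13 is the highest of them at 1.38.

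By position, the genes fell into 3 stretches plus Hist1h2al. The first stretch of chromosome 13 (chr13:21715763-22043676, Hist1 genes) held 24 genes, with a median difference of 0.82 over all of them. The second stretch (chr13:23531050-23934851, also Hist1 genes) held 31 genes with a median of 0.75. The chromosome 3 cluster (chr3:96219865-96270132, the Hist2 genes) held 10 genes with a median of −0.016. The group mean was higher with UDCA in 20 of 24, 28 of 31 and 5 of 10 genes, against 57.6% of all genes above 0 TPM. Of the 11, 15 and 5 genes in the model, 9, 10 and 1 passed both limits upward, against 8.71% of all genes. Among these 11, 15 and 5 genes, 3, 9 and 1 reached the 1 TPM limit only through the UDCA group. Nothing about position is therefore read from the numbers that passed. High and low values alternated along chromosome 13, as the plot in chromosomal order shows. All 5 members whose words were entirely contained in a gene outside the set lie on chromosome 3, where gene models such as Gm20632, Gm20633 and Gm20634 run over histone genes. Gm20632 (0.898 ± 0.131 TPM in LPS, 4.89 ± 0.681 TPM with UDCA) and Gm20633 (0.230 ± 0.088 and 2.51 ± 0.223 TPM) did not overlap between the groups. They were picked after their values were seen, and how reads were divided between them and the histone genes was not tested. No gene of the Hist3 or Hist4 loci was in the set, as these carry names there (H2aw, H2bu2 and H4f16) that the name rule does not match, and none exceeded 0.85 TPM.

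The annotated 3′ end was set beside the differences, without a test. The 43 genes with the stem-loop had a median difference of 0.58 and the 23 without it 0.81. Of these 23, 19 had an annotated transcript that ended within 50 bases of the stop codon or had no coding sequence. H4c12 and H3c10 were among the 19, so that class does not show that a stem-loop is absent. All medians here include genes under the 1 TPM limit. The 14 genes with a hexamer had a median of 0.70 and the 52 others 0.58. Among genes with a stem-loop, the 20 whose transcript ran over 100 bases past it had a median of 0.66, and the 23 with a shorter end 0.53.

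The start sites were inspected because neighboring histone genes are often transcribed from a shared promoter. RefSeq promoter windows (GRCm38.p6, 250 bases before to 50 after the start) were matched for 51 of the 66 genes and searched on both strands. CCAAT, the box bound by NF-Y, occurred in 88.2% of the 51 windows against 37.9% of 27025 windows of all genes. TATAAA occurred in 58.8% against 14.2%, and the octamer ATTTGCAT, the site of Oct1, in 23.5% against 1.75%. The octamer was found in 6 of 14 H2A and 6 of 12 H2B windows and in 0 of the H1, H3 and H4 windows. Windows of divergent H2A and H2B genes can overlap, so window counts are not counts of separate sites. H2ac1 and H2bc1, H2ac8 and H2bc8, and H2ac12 and H2bc12 each share 1 octamer site. GGTCCG, the core of an H4 subtype element, was found in 8 of 9 H4 windows, in 19.6% of all member windows and in 8.39% of all windows. None of the 4 motifs contains another. The window of H2bc12 is shown because it lies between H2bc12 and the divergent H2ac12, both of which passed the limits, and the window of H4c12 because that gene had the largest difference on the log2(TPM + 1) scale. Motif matches on either strand are in capitals.
H2bc12, chr13:22035571-22035870, plus strand: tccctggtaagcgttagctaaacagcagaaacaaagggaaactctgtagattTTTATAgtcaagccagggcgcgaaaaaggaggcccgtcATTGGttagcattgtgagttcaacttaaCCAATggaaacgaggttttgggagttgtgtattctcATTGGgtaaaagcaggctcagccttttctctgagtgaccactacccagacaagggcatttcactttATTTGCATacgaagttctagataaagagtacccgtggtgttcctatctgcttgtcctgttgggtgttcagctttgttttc
H4c12, chr13:21750504-21750803, minus strand: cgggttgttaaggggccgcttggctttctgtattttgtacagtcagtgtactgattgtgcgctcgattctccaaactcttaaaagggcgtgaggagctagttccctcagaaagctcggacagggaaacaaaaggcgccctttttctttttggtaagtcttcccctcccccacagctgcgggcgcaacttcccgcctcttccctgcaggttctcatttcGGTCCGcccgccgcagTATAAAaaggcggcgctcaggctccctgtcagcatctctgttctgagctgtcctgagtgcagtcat

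In the H2bc12 window, the octamer began 30 bases before the start, and CCAAT was found 3 times on the 2 strands. In the H4c12 window, GGTCCG began 32 bases and TATAAA 16 bases before the start. These are matches of letters, and binding was not measured.

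Genes that work around histones were taken from lists written with earlier results of these data known. Their adjusted p-values therefore only describe the fit over all genes and do not test the lists. In that fit, 8.71% of all genes passed both limits upward and 8.44% downward. Of 39 S-phase genes, all of which were measured, 33 fell, 0 rose and 6 did not pass both limits, with a median log2 fold change of −1.61 against 0.082 for all genes. Rrm2, a subunit of the ribonucleotide reductase that makes deoxyribonucleotides, went from 124 to 132 TPM in LPS to 10.8 to 11.4 TPM with UDCA (log2 fold change −3.42 ± 0.041, adjusted p = 6.9e-11). Cdc6, which loads the replicative helicase, fell by 2.91 (adjusted p = 2e-09). Fen1, the flap endonuclease, fell by 2.81 (adjusted p = 9.6e-10), and Cdt1, a licensing factor, fell by 2.63 (adjusted p = 9.6e-10). In the same libraries the summed histone genes had a ratio of 2.28. Whether the fall of the S-phase genes and the higher histone values come from the same cells was not tested.

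**Figure D5:**
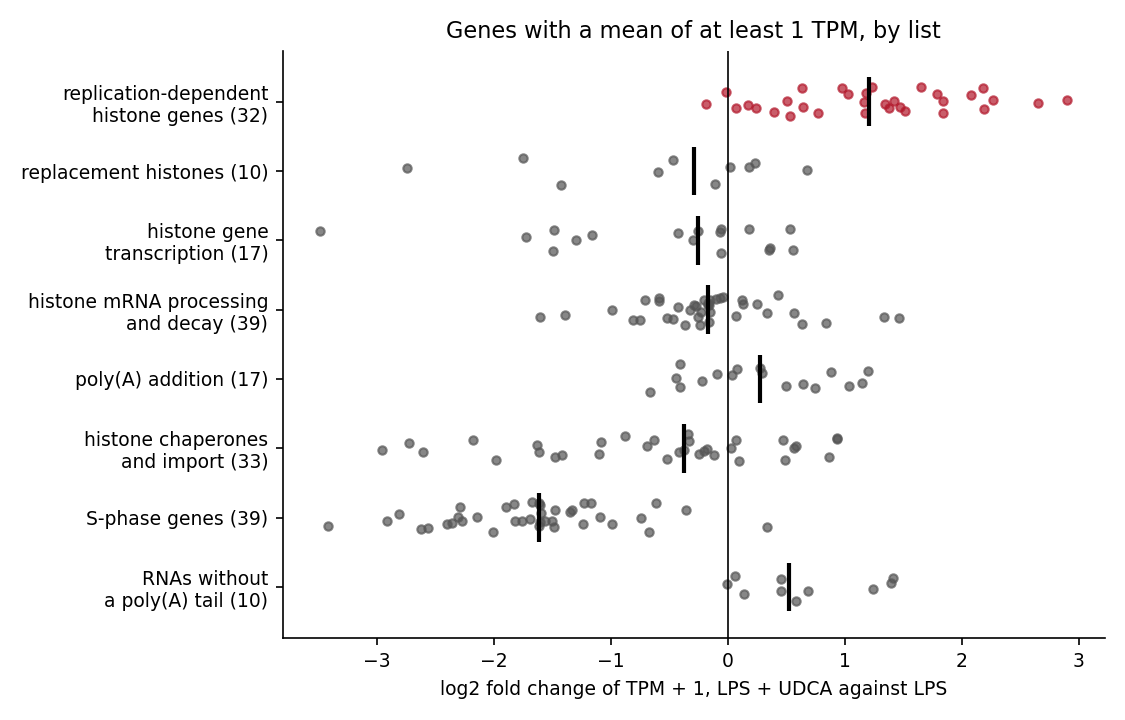
Log2 fold change of TPM + 1, LPS + UDCA against LPS (x axis), for genes averaging 1 TPM or more in each list (rows, number of genes in brackets). Points are genes, spread vertically to separate them, and black bars are medians. The 32 histone genes center on 1.21 and the 39 S-phase genes on −1.61, and the other lists lie between these medians.

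The regulators of histone gene transcription numbered 17 measured genes, of which 6 fell and 0 rose (median −0.25). Over all genes, 8.44% fell and 8.71% rose. Ccna2, cyclin A2, was at 27.0 to 31.2 TPM in LPS and 1.43 to 2.32 TPM with UDCA (−3.49 ± 0.11, adjusted p = 1.6e-08). Ccne1 and Ccne2, the E-type cyclins that with Cdk2 activate the histone-specific coactivator Npat, fell by 1.73 (adjusted p = 2.7e-08) and fell by 1.16 (adjusted p = 1.7e-05), respectively. Cdk2 fell by 1.30 (adjusted p = 5e-07), E2f1 fell by 1.496 (adjusted p = 2.3e-07) and E2f2 fell by 1.48 (adjusted p = 4.5e-07). Npat itself was at 3.11 to 4.84 TPM in LPS and 5.48 to 6.70 TPM with UDCA. Its log2 fold change of 0.55 ± 0.12 had an adjusted p of 0.0019 and was under the 2-fold limit. Casp8ap2 (FLASH), which joins transcription to 3′ end processing, showed no separation (−0.070 ± 0.15, adjusted p = 0.69).

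Among 39 measured genes for histone mRNA processing and decay, 2 rose, 2 fell and 35 did not pass both limits (median −0.17). Over all genes, 8.71% rose and 8.44% fell past both limits. Slbp was at 75.1 to 82.7 TPM in LPS and 37.6 to 42.0 TPM with UDCA, a log2 fold change of −0.99 ± 0.049 (adjusted p = 1.9e-07) that lay just under the limit. Lsm11, a subunit of the U7 snRNP that guides cleavage after the stem-loop, fell from 7.33 to 7.66 TPM in LPS to 1.95 to 2.84 TPM with UDCA (−1.40 ± 0.098, adjusted p = 1.7e-06). Its partner Lsm10 was at 32.1 to 35.03 and 35.8 to 45.3 TPM (0.25 ± 0.075, adjusted p = 0.013). Lsm2, part of the ring that takes part in mRNA decay and in the spliceosome, fell by 1.61 (adjusted p = 7.3e-09). Tut4, a terminal uridylyltransferase that adds uridines to RNA ends, rose from 4.25 to 5.65 TPM to 14.8 to 17.8 TPM (1.46 ± 0.094, adjusted p = 9.9e-07). The other gene that rose, Xrn1, a 5′ exonuclease, had a lower level and was named after its values were seen (1.13 to 1.60 TPM in LPS and 4.39 to 5.41 TPM with UDCA, 1.33 ± 0.11).

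Of 17 measured genes for the addition of poly(A) tails, 3 rose and 0 fell (median 0.27), against 8.71% and 8.44% of all genes. Cstf2t, a paralog of a cleavage stimulation factor subunit, rose by 1.20 ± 0.071 on the log2 scale (adjusted p = 5.8e-07). Pcf11, a cleavage and termination factor, rose by 1.03 ± 0.085 (adjusted p = 4.7e-06), a call that was lost under either other scaling. Papolg, a poly(A) polymerase also named after its values were seen, rose by 1.15 ± 0.11. RNAs that lack a poly(A) tail were used as a check on what the library kit captured, with 30 genes in the table, 15 of them at 0 TPM in every library and 10 measured. Their sum was 228 to 289 TPM in LPS and 316 to 380 TPM with UDCA, without overlap. The 10 measured had a median log2 fold change of 0.52, against 0.082 for all genes. One of them, Rpph1, the RNA of RNase P, rose with overlapping groups (1.99 to 10.6 TPM in LPS and 6.67 to 20.9 TPM with UDCA, 1.41 ± 0.45, adjusted p = 0.018), and its call was lost without LPS + UDCA replicate 1 or without replicate 3. The part of RNA capture in the histone values was not tested.

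Replacement histones, which are made outside S phase from polyadenylated mRNAs, are a separate set of genes. Of 10 measured, 0 rose and 3 fell (median −0.29), against 8.71% and 8.44% of all genes. H2az1, encoding H2A.Z, fell from 536 to 555 TPM in LPS to 155 to 167 TPM with UDCA (−1.76 ± 0.032, adjusted p = 7.4e-10). Cenpa, the centromeric H3, fell by 2.74 (adjusted p = 2.8e-07), and H2az2 fell by 1.42 (adjusted p = 4e-07). H3f3a and H3f3b, the genes of H3.3, had log2 fold changes of 0.18 ± 0.041 (adjusted p = 0.0031) and 0.23 ± 0.027 (adjusted p = 4.4e-05), H2ax −0.60 ± 0.045 (adjusted p = 2.7e-06) and H1f0 −0.47 ± 0.038 (adjusted p = 4.1e-06), all under the 2-fold limit. H3f3b, at 363 to 379 TPM in LPS and 432 to 444 TPM with UDCA, was listed far above the summed H3 replication-dependent genes in both groups. Because the kit enriches tailed RNA, these values do not compare the mRNA levels in the cells.

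Of 33 histone chaperones and import factors, 11 fell and 0 rose (median −0.37), against 8.44% and 8.71% of all genes. Chaf1a and Chaf1b, subunits of the chromatin assembly factor that works behind the replication fork, fell by 2.73 (adjusted p = 1.7e-08) and fell by 2.61 (adjusted p = 3.3e-07), respectively. Asf1b, an H3 and H4 chaperone, fell from 57.3 to 85.9 TPM to 6.16 to 11.5 TPM (−2.96 ± 0.18, adjusted p = 7e-07). Oip5, a factor for loading Cenpa at centromeres, fell by 2.18 (adjusted p = 2.1e-06). Where a list had 0 genes past both limits in limma, that direction was also counted at an unadjusted p under 0.05 without fold limit. There were 0 higher for the S-phase list, 4 higher for the transcription regulators, 5 lower for poly(A) addition and 3 higher for the replacement histones. There were 7 higher for the chaperones and 0 lower for the RNAs without a poly(A) tail. The share of all genes at that limit was not counted. It cannot be under the share at the stricter FDR limit alone, which was 40.2% upward and 32.3% downward.

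The libraries carried markers of macrophages. The 10 markers listed summed to 4218 to 4454 TPM in LPS and 2052 to 2312 TPM with UDCA, and the 8 measured had a median log2 fold change of −0.87. Adgre1 and Fcgr1 rose and Cd68, Csf1r, Itgam and Lyz2 fell. The part of this shift in the histone values was not tested. Mertk was listed at 0 TPM in all libraries and Mrc1 did not exceed 0.01 TPM. The 16 markers of other cell types summed to 0.98 to 1.26 TPM in LPS and 0.09 to 0.50 TPM with UDCA, and 9 of them were at 0 TPM in every library. Each library's listed TPM summed to between 973190 and 977485 in LPS and between 958918 and 962737 with UDCA, without overlap. No pair of libraries held identical values, and TPM gives no read depth.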

How the data were processed

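The authors sequenced poly(A)-enriched RNA-seq libraries (Illumina TruSeq kit and HiSeq sequencer) and deposited 1 table of TPM per gene, scaled by the authors per gene length and library. The submitters' processing notes name Bowtie 0.12.2 and the builds mm10 and GRCm38. The counting program is not given in the sources used here. TPM keeps no read depth, so no interval from counts could be given, and exact zeros may be failed assignments.

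All 8 columns matched a sample label. The groups were LPS and LPS + UDCA (n = 4 each). limma 3.58.1 in R 4.3.3 (lmFit and eBayes with a trend) was fitted to log2(TPM + 1) for the 11796 genes averaging 1 TPM or more, with Benjamini-Hochberg adjustment over all of them. The limits for a call were a 2-fold change and an FDR under 0.05. A fold change on this scale understates the change of low genes. The model script was tested on simulated data. Only genes with a higher level and a small spread between libraries were shifted there, so that test does not bear on low members. SDs are over libraries and SEs come from limma.

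The histone members and the companion lists were chosen with earlier results of these data known. Members therefore entered the limma fit with all genes. Their calls are counted beside the share over all genes, and no p-value is given for them. The adjusted p-values of list genes come from the same fit and do not test the lists. Every measured member was described by its difference, those with a mean of 5 TPM or more with each library's value, and from each list up to 4 genes at each end among those past both limits with a mean of 5 TPM or more, plus 14 fixed genes. Macrophage markers were named outside this rule. H3c15 was removed from a companion list because it is a member. Transcript features came from GENCODE M21 (GRCm38), in which all 66 members and 55141 of 55487 genes were found, and promoters from RefSeq (GRCm38.p6). Annotated strand could not be used for reads, since the kit does not mark it.

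Alternatives were quantile and median-of-ratios scaling, other filters and pseudocounts, a replicate block, no fold change minimum, no trend, leaving out each library and, added later, summed copies.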

Additional observations from a re-analysis of the deposited data

Results flagged for a closer look

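Within groups of 4 libraries, 140 sets of values were examined for 1 library standing far from the other 3, and chance alone marks about 1 in 20 such sets, or 7.0 here. The number marked was 11. Among the histone genes, H2ac19 was highest in LPS + UDCA replicate 3 (41.3 TPM, against 27.1 to 28.8 TPM in the others), the library in which its copy H2ac18 was lowest. H4c6 was also highest there (4.37 TPM, against 1.51 to 1.98 TPM). H1f4 was lowest in LPS + UDCA replicate 2 (0.95 TPM, against 1.61 to 1.68 TPM). In LPS, H3c1 was highest in replicate 2 (1.24 TPM, against 0.58 to 0.68 TPM) and Hist1h4m was highest in replicate 3 (7.04 TPM, against 5.82 to 6.0 TPM).

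Among the companion genes, Cenpa was highest in LPS + UDCA replicate 3 (18.3 TPM, against 10.9 to 11.6 TPM), Ccna2 in LPS + UDCA replicate 1 (2.32 TPM, against 1.43 to 1.45 TPM) and Cdk2 in LPS + UDCA replicate 2 (16.6 TPM, against 13.5 to 13.9 TPM). Ccne2 was lowest in LPS + UDCA replicate 2 (1.44 TPM, against 1.86 to 1.88 TPM), Rpph1 in LPS + UDCA replicate 4 (6.67 TPM, against 19.1 to 20.9 TPM) and Chaf1a in LPS replicate 3 (32.6 TPM, against 37.6 to 38.2 TPM).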

How the results depend on the processing

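The number of histone members past both limits upward was 20 of 32. It stayed at 18 to 22 of 32 under both other scalings, the pseudocount of 0.1, no trend and each left-out library. When the filter was lowered to 0.2 TPM it was 21 of 56, beside 1052 of 14551 genes in all. For genes above 0 TPM it was 21 of 63, beside 1044 of 23729 genes in all. It was 5 of 11 with a mean of at least 5 TPM, 24 without a fold change minimum (4741 genes higher and 3807 lower in all) and 6 of 13 with copies summed, and 0 downward in each of these. With a mean of at least 5 TPM 683 genes passed upward in all. Leaving out single libraries gave 18 to 21 members, with 18 of the 20 kept in every case, and 959 to 1122 genes higher and 972 to 1033 lower. H2ac8 was lost in 5 alternatives and H3c6 without LPS + UDCA replicate 3.

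The median of the members was 1.21. It was 0.64 for genes above 0 TPM and at a mean of at least 5 TPM, 0.77 at 0.2 TPM, 1.97 with a pseudocount of 0.1, 0.98 with copies summed, and 1.13 to 1.28 with single libraries left out. The log2 ratio of the summed TPM without the highest gene was 1.30 for all members, 1.89 for H1, 1.56 for H2B and 1.95 for H3. Over genes averaging 5 TPM or more it was 0.97 for all members and 0.23 for H2A. For H1f2, the only H1 gene at that limit, it was 0.52. For H3c10, the only H3 gene there, with an LPS mean of 1.08 TPM, it was 3.37. With single libraries left out it was 1.15 to 1.24 for all members, 0.63 to 0.72 for H1, 0.41 to 0.60 for H2A, 1.73 to 1.92 for H2B, 2.09 to 2.28 for H3 and 1.72 to 1.87 for H4.

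Without a fold change minimum, the companion lists gave 3 higher and 5 lower replacement histones and 4 higher and 8 lower transcription regulators. At the same limit there were 8 higher and 22 lower processing and decay genes and 9 higher and 5 lower poly(A) addition genes. The chaperones gave 7 higher and 21 lower, and the RNAs without a poly(A) tail gave 3 higher. Over all genes, the FDR limit alone was passed by 40.2% upward and 32.3% downward. With a mean of at least 5 TPM, processing and decay genes were 1 higher and 1 lower. Of the chaperones 1 rose with a pseudocount of 0.1, and 0 to 1 with single libraries left out. RNAs without a poly(A) tail ranged from 0 (without LPS + UDCA replicate 3) to 2 (without LPS + UDCA replicate 2).

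Signs changed for H2bc21 under quantile normalization (−0.053) and with a library left out for H2ac18 (−0.34 to 0.052 over the left-out libraries), Casp8ap2 (−0.14 to 0.050) and Hist1h2al (−0.24 to 0.22, positive at 0.18, 0.033 and 0.22). Those signs of Hist1h2al came without LPS replicate 2, LPS replicate 4 or LPS + UDCA replicate 3, and its same-numbered libraries had close values. Labels share replicate numbers between the groups, but over all genes same-numbered libraries did not deviate together (correlations −0.035 to 0.15, against −0.14 to 0.16 for different numbers). With a replicate block 20 members passed, and 1034 genes were higher and 1000 lower in all. Causes of these shifts were not tested. Without read depth, no limit of detection could be given for low genes.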
